A study of Homo sapiens with 4 samples.

Results

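The genes described here are 33 mesenchymal genes and genes of the epithelial-mesenchymal transition (EMT), followed in a gastric carcinoma line that was passed through mice. They were chosen by symbol from a list of known mesenchymal and EMT genes, drawn up when earlier results of these data were known. All 33 were found among the 18417 genes that had at least 1 array row naming a single gene, and the row with the highest mean stood for each gene. The set holds 7 transcription factors, 8 genes of adhesion, filaments and contraction, 9 matrix proteins, 3 matrix enzymes, 4 secreted signals, and 1 receptor with 1 adaptor.

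RNA came from SNU-16, an established human gastric carcinoma cell line, after growth in BALB/c nude mice, which lack thymus-derived T cells but keep B cells, natural killer cells and stroma. Parental SNU-16 cells were placed in the stomach wall in round 1, and cells were recovered from the tumour there (stomach line, round 1) and from ovarian metastases (ovary line, round 1). Round 1 cells were cultured for 7 days and implanted again, stomach-derived cells giving the stomach line of round 2 and ovary-derived cells the ovary line of round 2. There is 1 array for each of the 4 combinations, so each site and each round has n = 2. No array of SNU-16 before implantation was analysed here, and all 4 groups share the cell line and the passage through a mouse. The lines of a site belong to 1 lineage, the sources used here do not say how many animals stand behind a line, and p-values measure only the spread between these arrays, which may be technical. The free-text descriptions of both round 2 samples mention the other organ at 1 point each, and titles and tissue fields were followed instead. If those 2 arrays were exchanged, round means would stay the same. Site differences would be altered, as would the round change within each lineage and the contrast of these changes between lineages.

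EMT is the programme by which epithelial cells loosen E-cadherin junctions and take on the motile, matrix-producing character of mesenchymal cells. The zinc finger factors of the SNAIL and ZEB families and the helix-loop-helix factor TWIST1 drive it, in part by binding E-box sequences in the promoters of epithelial genes, and TGF-beta is its best studied inducer. Vimentin, N-cadherin, fibronectin and the matrix enzymes are its usual readouts. The same genes are strongly expressed by fibroblasts and smooth muscle, so in a tumour they can also come from stroma.

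Values are on a log2 scale, with array medians between 6.80 and 6.84 and correlations over all rows between 0.990 and 0.994 for every pair of arrays. The signal minimum was set at 5.64, which is the 30th percentile of the row means, and a gene passed it by its mean level. A second mark of the array floor was taken from 341 olfactory receptor genes, which are used mainly by sensory neurons of the nose. Their median was 4.91 and their 95th percentile 6.23. Probe sets differ in how well they bind, so no order of expression is read between genes, and a steady value near the floor does not show a steady transcript. For 9 of the 33 genes, 27.3%, at least 2 arrays carried the same value to the last deposited digit, against 15.2% of all genes, and their SD can be 0 within a site or a round.

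Of the 33 genes, 20 lay above the signal minimum and 13 did not, among them VIM, CDH2, FN1, ZEB1, ZEB2 and SNAI2. Over all genes 14547 of 18417 were above it, or 79.0%, beside 60.6% of the 33. The median level of the 33 was 5.90, close to the minimum. Only 12 of them exceeded the 95th percentile of the olfactory receptor genes, and 5 exceeded the highest receptor gene, at 7.18: TPM1, DAB2, SNAI1, FOXC2 and COL6A1. Of the 5, TPM1 and DAB2 lay furthest above that bound, with means of 9.54 and 8.88. The other 3 had means from 7.43 to 7.47, a range that also held TYROBP, an adaptor of myeloid and natural killer cells, at 7.44. TYROBP was the highest of 6 leukocyte markers, whose median was 5.69 and whose lowest mean was 4.04.

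**Figure D1:**
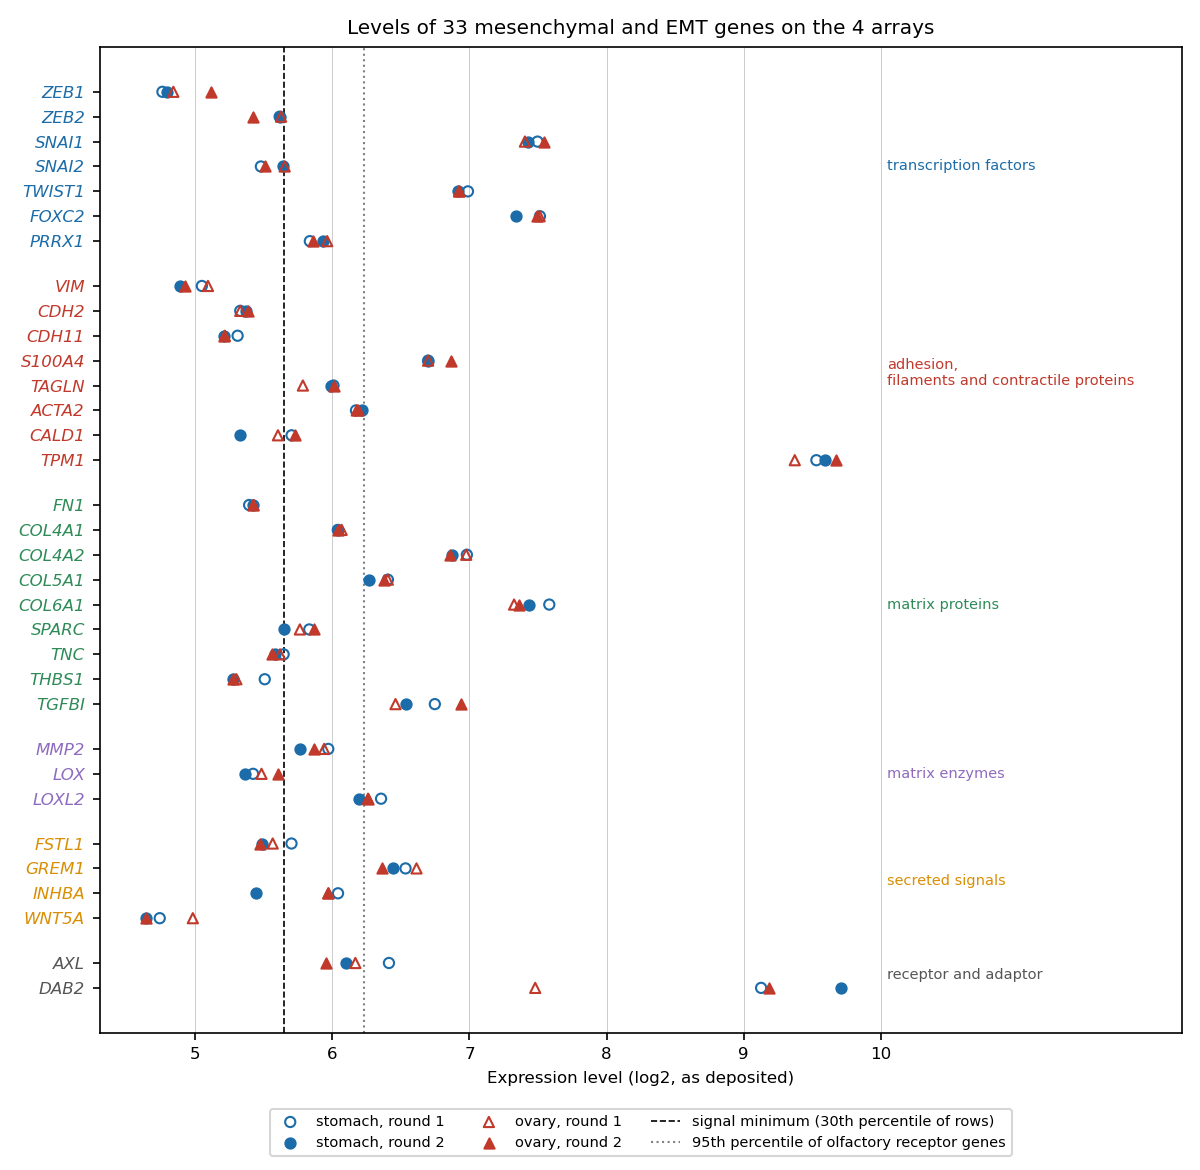
Level of each of the 33 genes on the 4 arrays (log2, horizontal axis), grouped by role; circles are stomach lines, triangles ovary lines, open symbols round 1 and filled symbols round 2. The dashed line is the signal minimum of 5.64 and the dotted line the 95th percentile of olfactory receptor genes, 6.23. Most genes cluster between or left of the lines with their 4 symbols overlapping, and DAB2 has 1 array, the round 1 ovary line at 7.48, far from the other 3.

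The cells themselves carried a strong epithelial signal. CDH1, which encodes E-cadherin, stood at 11.53 and 11.63 in the stomach lines of rounds 1 and 2 and at 11.50 and 11.63 in the ovary lines. EPCAM stood at 12.05, 12.09, 11.82 and 11.90 in the same order. All 29 genes found of an epithelial list of 31 lay above the signal minimum, with a median of 10.00. Markers of stroma were spread around the floor. Among 10 fibroblast markers 5 were above the minimum, the summed level of the list was 55.1 and 54.1 in the stomach lines and 54.6 and 54.1 in the ovary lines, and the means ran from 3.47 for POSTN, 3.87 for DCN and 3.98 for FAP to 6.36 for COL1A2, 6.38 for COL3A1 and 7.59 for COL1A1, the last of which passed the highest olfactory receptor gene. Among 6 smooth muscle markers 5 were above it, with sums of 37.3 and 37.0 in stomach and 36.7 and 36.9 in ovary. Of the endothelial, leukocyte and ovarian markers, 3 of 6, 3 of 6 and 4 of 6 passed it, and of the mesothelial markers 4 of 4 found. Mouse RNA is seen by these human probes only as far as it binds them, and the part of host cells in any value was not tested.

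**Figure D2:**
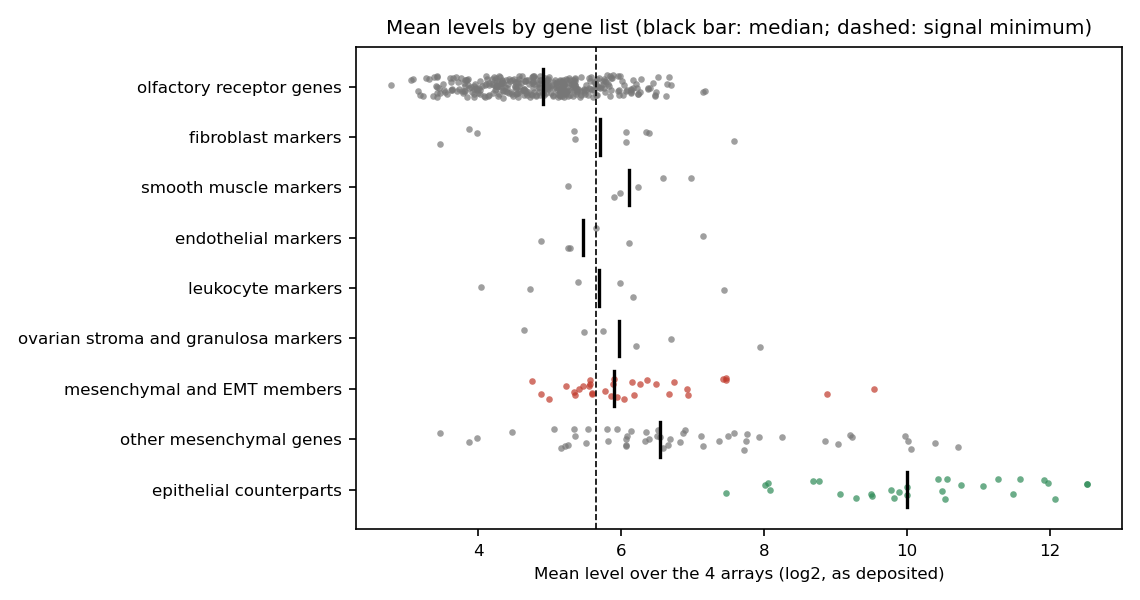
Mean level over the 4 arrays of each gene (dots) by list, with the list median as a black bar and the signal minimum as a dashed line. The 33 mesenchymal and EMT genes, in red, have a median of 5.90. They overlap the olfactory receptor genes and the markers of fibroblast, smooth muscle, endothelial, leukocyte and ovarian cells. The epithelial list, in green, starts at 7.46, and TPM1, DAB2, SNAI1 and FOXC2 of the 33 genes lie above that start.

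Promoter sequence is shown for DAB2, the gene that differed most between arrays, for AXL and S100A4, whose promoters hold the E-box read by SNAIL and ZEB factors, and for the COL4A1 and COL4A2 pair, which are transcribed away from each other from 1 short stretch. Sequences are RefSeq's, assembly GRCh38.p14, written 5′ to 3′ on the strand of the gene (plus strand for the collagen pair), and end at the base before the start site; capitals mark E-boxes (CAGGTG), GC boxes (GGGCGG) and CCAAT boxes (CCAAT), on either strand.
DAB2, chr5:39424981-39425230, minus strand: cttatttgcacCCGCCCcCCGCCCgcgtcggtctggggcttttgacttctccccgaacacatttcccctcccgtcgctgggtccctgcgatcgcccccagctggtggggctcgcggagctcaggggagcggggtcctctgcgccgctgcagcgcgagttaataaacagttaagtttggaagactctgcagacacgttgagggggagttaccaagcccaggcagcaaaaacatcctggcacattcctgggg
AXL, chr19:41218973-41219222, plus strand: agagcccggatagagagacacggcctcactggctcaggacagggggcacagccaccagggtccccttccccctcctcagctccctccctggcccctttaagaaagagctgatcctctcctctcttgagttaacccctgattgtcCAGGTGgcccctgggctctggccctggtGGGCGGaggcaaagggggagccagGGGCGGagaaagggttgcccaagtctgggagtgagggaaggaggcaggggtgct
S100A4, chr1:153545807-153546056, minus strand: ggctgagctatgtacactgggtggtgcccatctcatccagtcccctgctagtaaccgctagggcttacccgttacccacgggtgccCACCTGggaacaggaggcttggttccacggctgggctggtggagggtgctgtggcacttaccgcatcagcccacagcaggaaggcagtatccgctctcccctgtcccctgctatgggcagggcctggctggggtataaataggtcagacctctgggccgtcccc
COL4A1 and COL4A2, chr13:110307158-110307283, plus strand: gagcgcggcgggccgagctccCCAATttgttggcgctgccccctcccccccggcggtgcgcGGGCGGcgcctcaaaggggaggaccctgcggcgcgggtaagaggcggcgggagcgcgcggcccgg

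The E-box begins 106 bases before the start of AXL and 164 bases before that of S100A4. A window of 250 bases before a start site was at hand for 24 of the 33 genes, and in 5 of them (AXL, LOX, S100A4, WNT5A and ZEB1) at least 1 window held the E-box. Counted by window, these were 7 of 41, or 17.1%, beside 17.5% of all 35116 windows of this length. The stretch between the starts of COL4A1 and COL4A2 is 126 bases long and holds 1 GC box and 1 CCAAT box. GC boxes stood in 42.6% of all windows of 250 bases, which are longer than this stretch, and CCAAT boxes in 32.0%. In the 41 windows of the 24 genes the shares were 58.5% and 29.3%. These matches describe the letters only.

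Among the transcription factors, SNAI1, the founding repressor of E-cadherin, stood at 7.50 and 7.43 in the stomach lines of rounds 1 and 2 and at 7.40 and 7.55 in the ovary lines. The range of 0.14 between its arrays was smaller than that of most genes, whose median range was 0.26 above the signal minimum. TWIST1 stood at 6.99 and 6.91 in stomach and at 6.92 and 6.93 in ovary. FOXC2, a forkhead factor of mesenchymal development, was at 7.51, 7.34, 7.51 and 7.49 in the same order, the round 2 stomach line being the lowest. ZEB1 lay under the signal minimum on all 4 arrays, with 4.76 and 4.80 in stomach and 4.84 and 5.12 in ovary. Its ovary lines did not overlap its stomach lines, with a gap of 0.043 between the lower ovary and the higher stomach array. ZEB2 was measured by 2 probe sets, at 5.61, 5.61, 5.62 and 5.42 for the stronger and between 3.06 and 3.24 for the other. SNAI2, or SLUG, ran from 5.48 to 5.65 and PRRX1, a homeobox factor, from 5.84 to 5.96. None of the 7 factors varied by more than 0.36 between arrays.

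VIM, which encodes the intermediate filament vimentin, stood at 5.05 and 4.89 in stomach and at 5.09 and 4.93 in ovary, under the signal minimum on every array. CDH2, N-cadherin, ran from 5.33 to 5.38 and CDH11, a cadherin of mesenchymal cells, from 5.21 to 5.31, also under it. In a cadherin switch E-cadherin is lost while N-cadherin is gained. Here CDH1 had a range of 0.13 over the arrays and CDH2, under the signal minimum, one of 0.057. At the floor a small range does not show a steady transcript, and a switch was not tested. S100A4, a calcium-binding protein linked to motility, had the same value of 6.70 in both stomach lines and the round 1 ovary line and 6.87 in the round 2 ovary line. TAGLN (transgelin) and ACTA2 (smooth muscle actin) ran from 5.78 to 6.01 and from 6.17 to 6.21. CALD1, caldesmon, stood at 5.70 and 5.33 in stomach and 5.60 and 5.73 in ovary, around the minimum. TPM1, a tropomyosin that epithelial cells also make, stood well above the floor, at 9.53 and 9.60 in stomach and 9.37 and 9.67 in ovary. Its lowest value was in the round 1 ovary line, and both round 2 lines lay above both round 1 lines.

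Of the matrix proteins, FN1, fibronectin, stood at 5.39 in the round 1 stomach line and at 5.42 on the other 3 arrays. COL4A1, a chain of basement membrane collagen, was at 6.07 in the round 1 ovary line and at 6.04 on the others. Its partner COL4A2 stood at 6.98 and 6.88 in stomach and at 6.98 and 6.86 in ovary, lower in both round 2 lines. COL6A1 was at 7.58 and 7.43 in stomach and at 7.33 and 7.36 in ovary, with no overlap between sites. COL5A1 ran from 6.26 to 6.40. SPARC, THBS1 and TNC, which modulate how cells attach to matrix, lay between 5.28 and 5.86. TGFBI, a secreted protein named for its induction by TGF-beta, stood at 6.75 and 6.54 in stomach and at 6.46 and 6.94 in ovary. Its round change was -0.21 in stomach and 0.48 in ovary. The matrix enzymes MMP2, a gelatinase, and LOX and LOXL2, which cross-link collagen, had ranges of 0.20, 0.24 and 0.16, with LOX under the minimum on every array.

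INHBA, a subunit of activin, stood at 6.04 in the round 1 stomach line, at 5.44 in the round 2 stomach line and at 5.97 in both ovary lines. The round 2 stomach line was thus the low one, and it was the only one under the signal minimum. GREM1, a BMP antagonist, was at 6.53 and 6.44 in stomach and 6.61 and 6.36 in ovary. FSTL1, a follistatin-like glycoprotein, ran from 5.47 to 5.70. WNT5A, a ligand of non-canonical WNT signalling, was under the signal minimum on every array, at 4.74 and 4.64 in stomach and at 4.98 and 4.64 in ovary. AXL, a receptor tyrosine kinase tied to mesenchymal and drug-resistant states, stood at 6.41 and 6.10 in stomach and at 6.17 and 5.95 in ovary. It was lower in ovary within each round and lower in round 2 within each site.

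DAB2, an endocytic adaptor that also binds TGF-beta receptors and is made by some epithelia, had the widest range of the 33 genes. It stood at 9.13 and 9.71 in the stomach lines of rounds 1 and 2 and at 7.48 and 9.18 in the ovary lines. The round 1 ovary line was the low array, and the other 3 lay within 0.58 of each other. The ovary line was 3.14-fold lower than the stomach line in round 1 and 1.44-fold lower in round 2, and from round 1 to round 2 the log2 level was 1.70 higher in ovary, or 3.26-fold, and 0.58 higher in stomach. The range over the 4 arrays, 2.23 or 4.69-fold, was larger than that of 99.9% of the genes above the signal minimum. A range of at least 2-fold was found in 1 of the 33 genes and in 1.35% of all genes. DAB2 was also the only one of the 33 at least 2-fold apart between sites in round 1, where 0.375% of all genes were, and between rounds in ovary, where 0.755% were. Without the round 1 ovary array, 0 of the 33 had such a range. INHBA followed with a range of 0.60, and the remaining 31 genes stayed under 0.5, which 11.8% of all genes reached or passed. The median range of the 33 was 0.20, beside 0.25 over all genes.

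**Figure D3:**
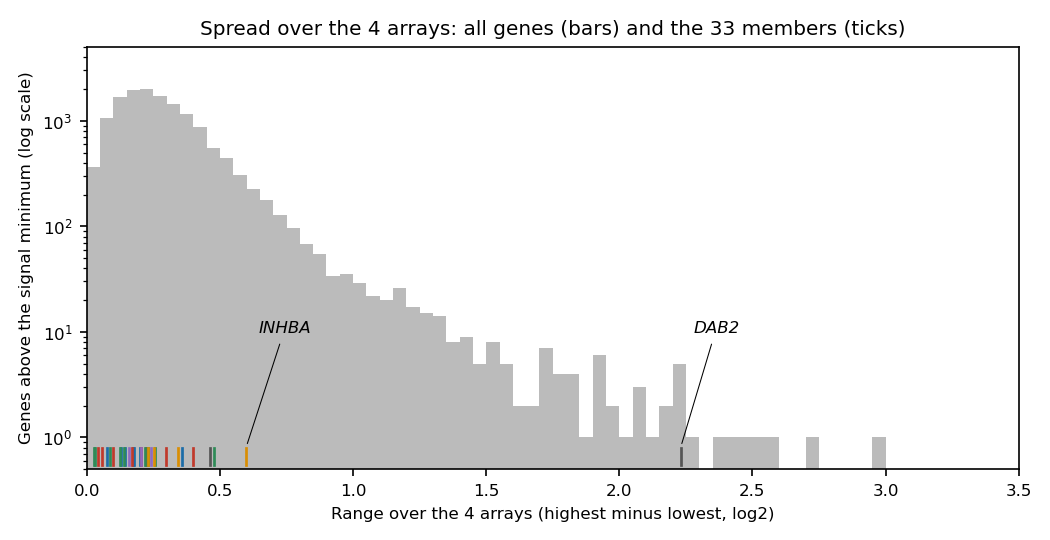
Range over the 4 arrays (highest minus lowest value, log2) of the genes above the signal minimum (grey bars, counted on a log axis) and of the 33 genes (ticks coloured by role). DAB2, at 2.23, stands apart, INHBA follows at 0.60, and the other 31 ticks lie below 0.5.

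The comparison of sites asked which genes differed between lines from ovarian metastases and lines from stomach tumours. Limma with Benjamini-Hochberg adjustment called 0 of the 20 genes above the signal minimum at an adjusted p under 0.05, as it called 0 of the 14547 genes tested (0%). Unadjusted p-values under 0.05 were found for 0 of the 20 and for 378 of the 14547, or 2.60%. Values for the other 13 come from a fit of all 18417 genes, where limma called none and 498 genes, none of the 33 among them, had an unadjusted p under 0.05. With the round as a block, 1 of the 20, DAB2, had an unadjusted p under 0.05, beside 6.30% of the genes tested, and its adjusted p was 0.768. DAB2 had the largest mean difference, -1.09 ± 0.60 (SE, ovary minus stomach), with levels of 9.42 ± 0.41 in stomach and 8.33 ± 1.20 in ovary (SD, n = 2 each), an interval of -2.66 to 0.48 and an adjusted p of 1. That mean rested on 1 array: it was -0.24 without the round 1 ovary array, -1.94 without that of round 2, and -1.38 or -0.80 without the stomach array of round 1 or 2.

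After DAB2 the mean site differences furthest from 0 were those of INHBA (0.23 ± 0.21), ZEB1 (0.20 ± 0.12), AXL (-0.20 ± 0.15) and COL6A1 (-0.16 ± 0.10), each with limma's standard error. Each moved by over 1.5 times when 1 array was left out. For INHBA the difference was -0.071 without the round 2 stomach array and 0.53 without that of round 1. ZEB1 gave 0.061 without the round 2 ovary array and 0.34 without that of round 1. AXL gave -0.039 without the round 1 stomach array, -0.35 without that of round 2, -0.30 without the round 1 ovary array and -0.088 without that of round 2. COL6A1 gave -0.089 without the round 1 stomach array. VIM differed by 0.041 ± 0.11, with an interval of -0.25 to 0.34, and CDH2 by 0.0091 ± 0.079. For 32 of the 33 genes, all but DAB2, the 95% interval of the site difference lay within 2-fold in either direction, and for 30 within 1.5-fold. Those 32 include the 13 under the signal minimum, where a narrow interval does not show a steady transcript. Ovary was higher than stomach within each round for 3 of the 33 and lower for 6, beside 23.5% and 24.7% of all genes. Both ovary arrays lay above both stomach arrays for 2 of the 33, ZEB1 and LOX, where 12.4% of all genes did so. COL6A1 alone lay below, where 11.7% of all genes did. With quantile normalization these counts were 4 and 2, where 13.3% and 13.8% of all genes did so. The median site difference of the 33 was 0.014, and that of all genes -0.0016.

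**Figure D4:**
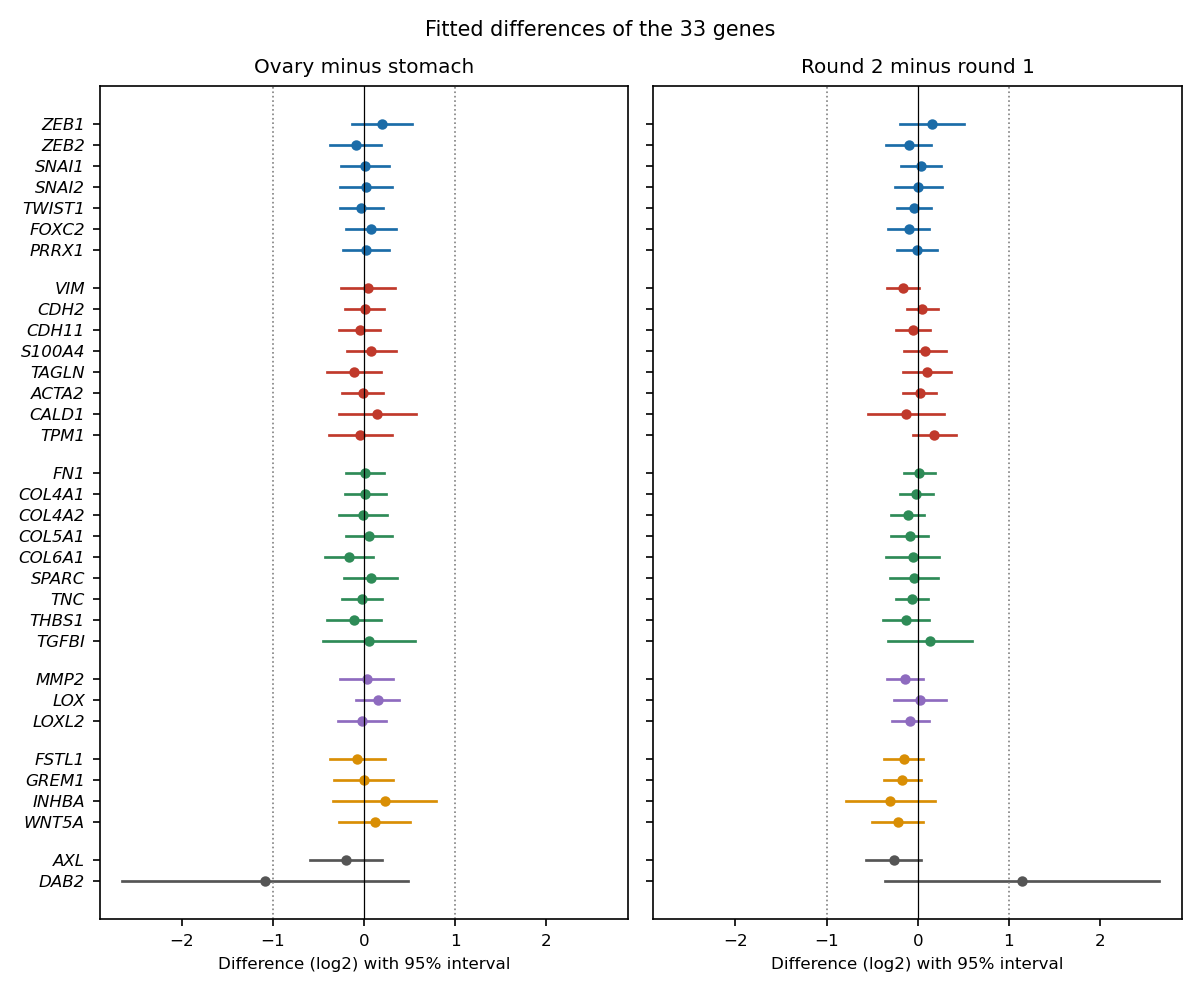
Fitted difference of each gene (dot) with its 95% interval from limma (line), in log2 units, for ovary minus stomach on the left and round 2 minus round 1 on the right; dotted lines mark 2-fold. All intervals include 0, and those of DAB2, about -1.09 and 1.14, are the only ones that cross a dotted line.

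Lines of the second implantation were next set against those of the first. Limma again called 0 of the 20 genes and 0 of 14547 (0%), while unadjusted p-values under 0.05 were found for 0 of the 20 and for 15.0% of the genes tested. The fit of all 18417 genes gave no call and 2481 such p-values, none of them for the 33. With the site as a block, 2 of the 20, DAB2 and AXL, had an unadjusted p under 0.05, beside 16.2% of the genes tested, with adjusted p-values of 0.224 and 0.278. The round difference of DAB2 was 1.14 ± 0.57 (SE), from 8.30 ± 1.17 in round 1 to 9.45 ± 0.37 in round 2 (SD, n = 2 each), with an interval of -0.36 to 2.65 and an adjusted p of 0.41. It was 0.32 without the round 1 ovary array, 1.41 without that of round 2, and 1.97 or 0.88 without the stomach array of round 1 or 2. INHBA differed by -0.30 ± 0.19, AXL by -0.26 ± 0.12 (adjusted p = 0.37, lower in 2 of 2 lineages), WNT5A by -0.22 ± 0.10, TPM1 by 0.18 ± 0.089, GREM1 by -0.17 ± 0.078 and VIM by -0.16 ± 0.065. INHBA rested on the round 2 stomach array: its difference was -0.036 without it and -0.56 without the round 2 ovary array. WNT5A gave -0.10 without the round 1 ovary array and -0.34 without that of stomach, AXL -0.14 without the round 1 stomach array, and TPM1 0.10 without the round 1 ovary array. VIM and GREM1 stayed within 1.5 times of their values. The interval of VIM, -0.34 to 0.015, holds no change as large as 1.5-fold, but VIM lay under the signal minimum on every array. At the floor a narrow interval does not show a steady transcript.

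Within each site, round 2 was lower for 12 of the 33 genes and higher for 5, beside 34.1% and 26.6% of all genes. Both round 2 arrays lay below both round 1 arrays for 12 of the 33 genes, where 26.0% of all genes did so, and above for 4, where 20.1% did. The 12 were VIM, CDH11, MMP2, COL4A2, COL5A1, TNC, THBS1, AXL, FSTL1, GREM1, WNT5A and FOXC2, and the 4 were DAB2, TPM1, CDH2 and ACTA2. As shares the 33 genes gave 36.4% lower and 12.1% higher. With each array centred on its median the counts were 10 lower and 7 higher, and all genes turned to 21.0% lower and 27.3% higher. With quantile normalization the counts were 11 lower and 5 higher, beside 30.9% and 18.0% of all genes. The split thus depends on which scaling is used. The median round difference of the 33 was -0.052 and that of all genes -0.021. For 32 of the 33, again all but DAB2 and with the 13 under the signal minimum included, the interval lay within 2-fold. Several of these differences were below their standard errors, so the counts describe the order of the arrays and no change of a gene. A mean round difference below 0 was found for 21 of the 33 genes and 55.4% of all genes. After median centring these were 19 and 49.2%, and with quantile normalization 19 and 59.4%. As deposited, the count was 7 of 10 for fibroblast, 5 of 6 for endothelial and 4 of 6 each for smooth muscle, leukocyte and ovarian markers. It was 3 of 4 for mesothelial markers, 0 of 5 for epithelial markers and 6 of 29 for the longer epithelial list. The medians were -0.070 for fibroblast, -0.14 for endothelial, -0.042 for smooth muscle and -0.016 for leukocyte markers. They were -0.11 for ovarian, -0.068 for mesothelial and 0.16 for epithelial markers, and 0.14 for the longer epithelial list. The part of these cell types in the result was not tested.

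**Figure D5:**
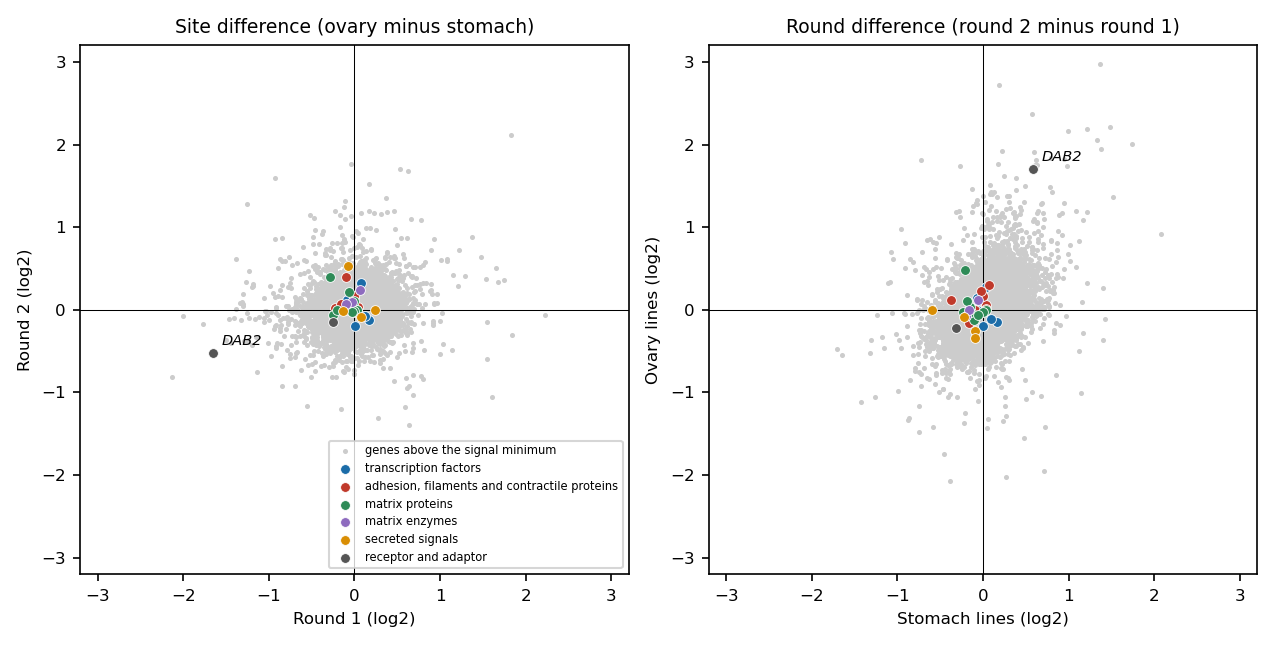
Differences of the 33 genes (coloured by role) and of all genes above the signal minimum (grey), in log2 units. On the left the site difference in round 1 (horizontal) is set against that in round 2, and on the right the round difference in stomach lines (horizontal) against that in ovary lines. DAB2 lies at -1.65 and -0.53 on the left and at 0.58 and 1.70 on the right, and the other genes gather around the origin.

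Whether a gene changed differently between rounds in the ovary and stomach lineages was tested as the interaction of site and round. With 4 arrays a full model leaves no residual, so the interaction was fitted without site and round, whose differences then formed the residual, and a gene with small site and round differences got a small error. Limma called 0 of the 20 genes and 0 of 14547 (0%), with 194 unadjusted p-values under 0.05, or 1.33%. One of those was TGFBI, whose change in ovary exceeded that in stomach by 0.69 ± 0.22 (unadjusted p = 0.0299, adjusted p = 1), beside site and round differences of 0.056 and 0.13. With the site as a block its unadjusted p in limma was 0.0712. The excess of TGFBI would also be altered if the arrays of round 2 were exchanged between sites. For DAB2 the excess was 1.12, for INHBA 0.60 and for CALD1 0.50, each with an adjusted p of 1. No gene of the 33 had round differences of 0.25 or more in opposite directions at the sites, which 1.25% of all genes had. At a smaller step of 0.1, chosen after seeing the data, 4 of the 33 did so, or 12.1%, beside 8.33% of all genes: TGFBI, CALD1 and SPARC, lower in the stomach and higher in the ovary line of round 2, and SNAI2, the other way.

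Among other mesenchymal genes, 51 of a list of 52 were found and 39 lay above the signal minimum. Limma called 0 of them between sites and 0 between rounds, with unadjusted p-values under 0.05 for 2 in each. Such p-values were found for 2.60% and 15.0% of all genes tested. A range of at least 2-fold was seen in 5 of the 51, beside 1.35% of all genes: FSCN1, LGALS1, CCN2, IGFBP4 and ITGA5, the last chosen for naming after its values were seen. LGALS1, the lectin galectin-1, stood at 10.57 and 10.73 in stomach and at 9.55 and 10.67 in ovary. IGFBP4, which binds insulin-like growth factors, was at 9.42, 9.34, 8.41 and 8.94 in the same order. Both genes were lowest in the round 1 ovary line, as DAB2 was. FSCN1, the actin bundler fascin, was at 10.74 and 9.82 in stomach and at 9.40 and 9.90 in ovary, high in the round 1 stomach line and lowest in the round 1 ovary line. CCN2, a matricellular target of YAP and TGF-beta, stood at 9.02, 9.06, 8.87 and 9.97, and the integrin subunit ITGA5, a receptor for fibronectin, at 6.69, 6.47, 6.58 and 7.57. Those 2 were highest in the round 2 ovary line, where TGFBI was highest too. The share of all genes that are highest or lowest on a given array was not counted, and a link between these genes was not tested. Of the 10 fibroblast markers, 4 had a site difference above 0 and 6 below, and 3 had a round difference above 0 and 7 below. They ran from -0.31 (PDGFRB) to 0.18 (LUM) between sites and from -0.40 (PDGFRB) to 0.24 (LUM) between rounds.

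Of 21 TGF-beta pathway genes, all found, 18 lay above the signal minimum and limma called 0 between sites and 0 between rounds, with unadjusted p-values under 0.05 for 1 and 2. Again the shares of all genes tested were 2.60% and 15.0%. TGFB1, the ligand, stood at 5.62 and 5.76 in stomach and at 5.62 and 6.10 in ovary, near the floor. Its receptor TGFBR1 was at 9.18 and 9.47 in stomach and 8.93 and 9.40 in ovary, and the signal transducer SMAD3 at 9.53, 9.85, 9.41 and 9.66, both higher in round 2 at each site, by 0.38 ± 0.11 and 0.28 ± 0.10 on average (SE). SKIL, a feedback repressor of SMAD signalling, stood at 7.62 and 7.66 in stomach and at 8.05 and 8.10 in ovary, with no overlap between sites. BAMBI, a decoy receptor, was 0.26 higher in ovary and LTBP1, which stores latent TGF-beta in matrix, 0.19. The co-receptor TGFBR3, under the signal minimum in the mean, was chosen for naming after its values were seen. It stood at 5.70 and 4.86 in the stomach lines and was lower in round 2 at each site, with a mean round difference of -0.80 ± 0.17 (SE). The limma fit of all 18417 genes, which includes TGFBR3, called 0 genes between rounds.

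On the epithelial side limma called 0 of the 29 genes in either comparison, with unadjusted p-values under 0.05 for 2 between sites and 3 between rounds. For these p-values the shares of all genes tested were 2.60% and 15.0%. Both round 2 arrays lay above both round 1 arrays in 12 of the 29 and below in 1, where 20.1% and 26.0% of all genes did so. Both ovary arrays lay above both stomach arrays in 2 and below in 7, where 12.4% and 11.7% of all genes did. After median centring the round shares of all genes were 27.3% above and 21.0% below. The epithelial list was not recounted after centring, so its counts are those of the values as deposited. The keratins KRT8, KRT18 and KRT19 had round differences of 0.30, 0.21 and 0.16, and the matriptase gene ST14 one of 0.44. EPCAM, RAB25, PRSS8 and SPINT1 had site differences of -0.21, -0.23, -0.31 and -0.27. CDH1 differed by -0.018 between sites and by 0.11 between rounds.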

How the data were processed

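Per the labels' protocols, total RNA from cell pellets was biotinylated for Affymetrix arrays. The authors deposited 1 table of log2 values, made with Affymetrix Expression Console per the submitters' processing notes; how it corrected background and scaled the arrays is not stated there. The values span 2.25 to 14.2, which is what gave the log2 scale. Scaling between arrays would hide a shift common to all transcripts, and in bulk RNA fewer cells and less RNA per cell cannot be told apart.

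Of 33297 rows, 19460 name 1 gene in the platform annotation, 1754 name several and were not used, and 12083 are unnamed here; symbols were updated by gene identifier through RefSeq (GRCh38.p14), where 19429 rows matched. Site, round and their interaction were tested by limma 3.58.1 (R 4.3.3; lmFit, then eBayes; two-sided p-values adjusted by Benjamini-Hochberg over all genes tested) on all 4 arrays without a block, so that each fit holds the other 2 terms in its residual; all ± values of differences are limma's standard errors. The step was run on simulated data with independent noise on each array, where the mean estimate of planted changes was checked. This leaves out the shared deviations of arrays of 1 round and does not show what the step can call here. The round number is shared by both sites; deviations from the site means of arrays of the same round correlated across genes at 0.411 (2 pairs), and fits with a replicate block were run as an alternative. Other alternatives were the signal minimum, quantile normalization, median centring, the mean of probe sets, a trended prior and leaving out each array. All 33 members were named, with, from each other list, up to 3 genes above the minimum per comparison by size of difference. Genes named outside this rule included ITGA5 and TGFBR3, and the fibroblast markers POSTN, DCN and FAP, given at the low end of their list. Members and lists were chosen with earlier results of these data known. Figures were drawn with matplotlib 3.10.9.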

Additional observations from a re-analysis of the deposited data

How the results depend on the processing

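The fits for site, round and interaction called 0 genes under every alternative run, the replicate block included, with smallest adjusted p-values from limma of 0.122 (site) and 0.133 (round) under the block and of 0.0863 for the round after median centring. With the block, 916 genes had an unadjusted p under 0.05 between sites and 2358 between rounds; for DAB2 the blocked interval ran from -1.77 to -0.41 between sites (adjusted p = 0.768) and from 0.46 to 1.82 between rounds (adjusted p = 0.224), and the block changed no call. The number of the 33 genes above the floor was 20, but 12 against the 95th percentile of olfactory receptor genes and 7 at the 50th percentile of rows, and was 19 if every array had to pass. Genes with no overlap between sites numbered 3, but 6 with quantile normalization and 5 with median centring. As deposited, 12.4% of all genes had ovary above stomach and 11.7% below. The shares were 13.3% and 13.8% with quantile normalization and 14.1% and 13.8% with median centring. Opposite round changes numbered 4 of 33 at a step of 0.1, chosen after seeing the data, beside 8.33% of all genes. The count of genes with a 2-fold range lay between 0 and 1 with each array left out, 0 without the round 1 ovary array. Signs were compared across settings where a difference exceeded its standard error, for 6 site and 17 round differences; of these, leaving out arrays turned the sign of INHBA between sites (-0.071 to 0.53), and of ZEB1 (-0.0033 to 0.32) and TAGLN (-0.0086 to 0.22) between rounds. The interaction cannot be fitted without an array. With 2 arrays a site, half-widths of the site intervals had a median of 0.28.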

Other observations

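Regulators that control EMT factors or compete with them were measured well above the floor in 20 of the 22 genes found, of 23 listed, and limma called 0 between sites and 0 between rounds, with unadjusted p-values under 0.05 for 0 and 3. Among all genes tested, limma gave such p-values for 2.60% between sites and 15.0% between rounds. TEAD4, a partner of the coactivator YAP, stood at 8.40 and 8.08 in the stomach lines of rounds 1 and 2 and at 8.72 and 8.19 in the ovary lines, lower in round 2 at each site. KLF4, a Krüppel-like factor of gut epithelium, was at 9.37 and 9.47 in stomach and at 9.51 and 10.02 in ovary, highest in the round 2 ovary line. SOX4, an inducer of EMT in other tumours, was highest in the same line, with 8.21 and 8.02 in stomach and 8.26 and 8.57 in ovary. EZH2, the histone methyltransferase of the Polycomb complex, stood at 9.95 and 10.18 in stomach and 10.24 and 10.36 in ovary, with no overlap between sites. FBXW7, a ubiquitin ligase subunit, was 0.37 higher in round 2 on average.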
